A study of Mus musculus with 4 samples.

Results

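The genes described here encode semaphorins, Slits, netrins and ephrins and their receptors. They were chosen by name alone: every row of the count table whose symbol is a semaphorin (Sema3 to Sema7), plexin (Plxn), neuropilin (Nrp), Slit, Robo, netrin (Ntn), Unc5, Dcc, Eph receptor or ephrin (Efn) gene. The rule found 69 genes of the 51098 in the table, and all 69 are protein-coding genes in the GENCODE M21 annotation of GRCm38. RNA sequencing of ribosome-depleted total RNA measured expression in embryonic mouse stomachs of stage E15.5 (days of embryonic development). One group, called Fgf9_null here, has the genotype Fgf9LacZ/LacZ and the treatment label Fgf9KO; the other, Fgf9_het, has the genotype Fgf9LacZ/+ and the label control, although its columns are titled WT. Each group has 2 samples, numbered 2 and 3, and all 4 samples carry at least 1 copy of the Fgf9LacZ allele. The sources used here do not state the strain, the sex or the number of embryos behind a sample, nor whether samples were separate embryos.

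These families were first studied as cues that steer growing axons, and they also guide blood vessels, migrating neural crest cells and epithelial boundaries. Semaphorins bind plexins, with neuropilins as co-receptors for most secreted class 3 members. Slits bind Robo receptors, netrins bind Dcc and Unc5 receptors, and ephrins on one cell bind Eph receptor kinases on the next. In the developing gut, several of these systems act on the enteric nerve precursors, the vessels or the tissue layers of the wall.

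The columns of the table could not separate the genotypes. For the 69 guidance genes, reads under the Fgf9_null and Fgf9_het labels were nearly the same wherever the replicate number was the same. The largest gap was 5.003 reads for replicate 2 and 7.995 reads for replicate 3, both for Nrp2, and 35 of 69 genes were equal within 0.001 reads in each pair. A chi-square statistic per degree of freedom over the 69 genes was 0.000195 and 0.000229 for same-numbered columns, against 2.74 to 2.75 for columns of different number, where reads drawn separately from 1 pool give about 1. The gap between same-numbered columns was therefore smaller than sampling noise, and each such pair was counted as 1 sample: the table holds 2 libraries, called library 2 and library 3. Over all genes the same-numbered columns gave 4.46 and 4.64, but 0.000792 and 0.00385 without the 4 genes Rn7s1, Rn7s6, Gm19220 and Gm26461, none of which is a member. Under either label Fgf9 itself had 133 reads (replicate 2) and 131 reads (replicate 3), so it does not check the genotype. No source used here settles whether each column name stands over its own data.

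**Figure D1:**
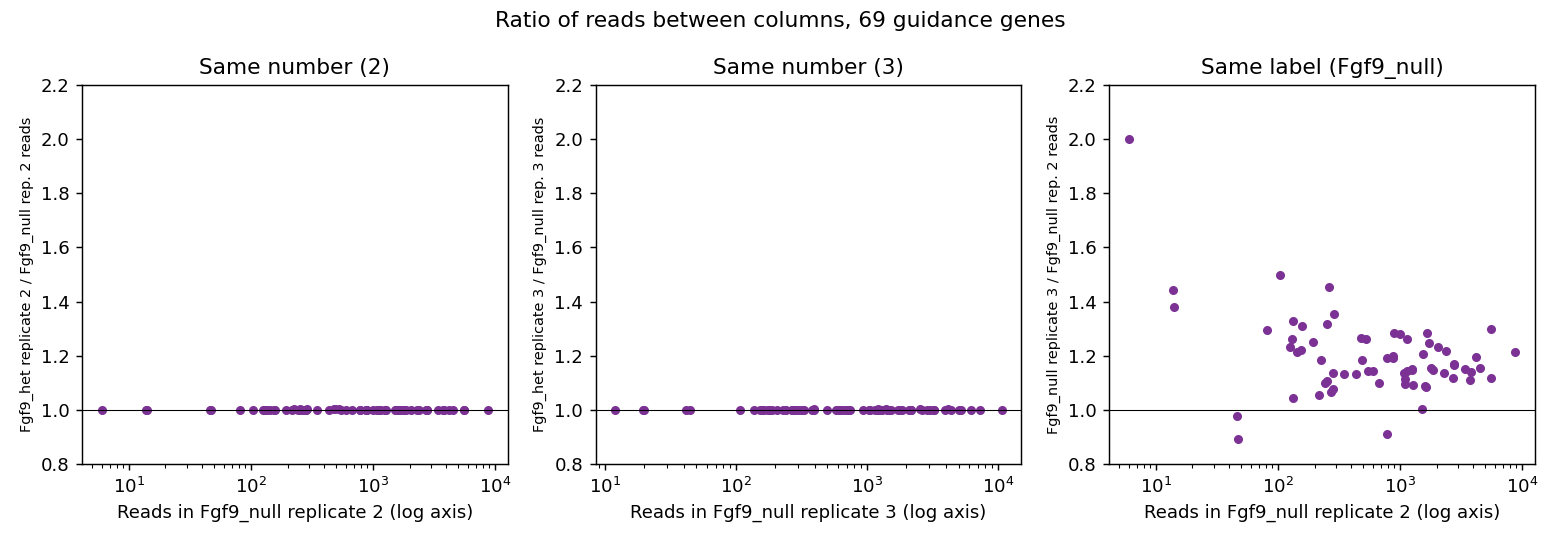
Ratio of reads between columns (y axis) against reads in the first column (x axis, log scale) for the 69 guidance genes, 1 point per gene. Same-numbered columns of the 2 labels lie on the line at 1, with a largest gap of 7.995 reads, whereas columns of different number under the same label scatter and are mostly above 1, since replicate 3 is deeper.

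The comparison of Fgf9_null with Fgf9_het gave no call among the guidance genes. edgeR's quasi-likelihood test called 0 of 69 members at an adjusted p under 0.05, beside 0% of all 19987 genes tested, and 0 members had an unadjusted p under 0.05, beside 0.02%. DESeq2 called 0 members beside 0.0101% of all genes, limma-voom 0 beside 0%, and edgeR with the replicate number as a block 0 beside 0.03%. With 1 column left out, edgeR called 0 members beside 0.00992% (without Fgf9_null replicate 2), 0.0101% (without Fgf9_null replicate 3), 0.00496% (without Fgf9_het replicate 2) and 0.00504% (without Fgf9_het replicate 3). In the edgeR fit of all 4 columns, the largest fitted difference of a member was 0.00275 on the log2 scale, for Epha5, which was lower under the Fgf9_null label by that amount (SE 0.0419, edgeR adjusted p of 1). With 1 column left out, where the groups no longer hold the same libraries in equal number, it was 0.324 to 0.466. Because each library stands under both labels, this contrast sets a library against itself and does not measure an effect of Fgf9. The other genes of the pathways gave no call either. They stood in 4 lists of co-receptors, netrin-like or repulsive guidance molecules, signal transducers and proteases. With 10, 19, 14 and 14 genes tested, edgeR called 0 genes in either direction.

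What the data do hold is the level of each guidance gene in whole embryonic stomach, measured in 2 libraries. Column totals were 19269851 to 22713416 estimated reads, at which 3 reads are worth 0.132 to 0.156 CPM (reads per 1000000 in the column). Values below are mean CPM ± SD (n = 2 libraries), unless given per library; the genotype of each library is not settled, so its part in the SD cannot be told apart. To compare 1 gene with another, CPM was divided by the length of all exons of the gene in kilobases (CPM per kb). Of a list of gastric epithelial markers, 8 of 9 reached 1 CPM in both libraries, as did 5 of 5 stomach mesenchyme and 5 of 5 smooth muscle markers. None of 5 spinal cord and brain markers did so (summed level 2.13 ± 0.0125 CPM, Olig2 at 0).

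Nearly the whole guidance repertoire was expressed. Of the 69 guidance genes, 66 reached 1 CPM in each library, beside 32.7% of all genes in the table and 65.8% of its protein-coding genes. At least 10 CPM in both was reached by 54 members, beside 20.9% of all genes and 47% of protein-coding genes. At least 100 CPM was reached by 14 members, beside 3.51% and 7.95%. Together the 69 genes summed to 4682 CPM in library 2 and 4719 CPM in library 3, or 0.47% of all counts. The median of the 66 was 45.98 CPM and 5.92 CPM per kb; over the 16699 genes of the table that passed the same level and have exon lengths, it was 19.5 CPM and 4.79 CPM per kb. The members' exons are long, with a median of 6748 bases against 4163, so the gap between the medians is smaller per length. Only Robo3, Ntn5 and Epha10 stayed under 1 CPM, and each still had at least 6 reads in every column.

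**Figure D2:**
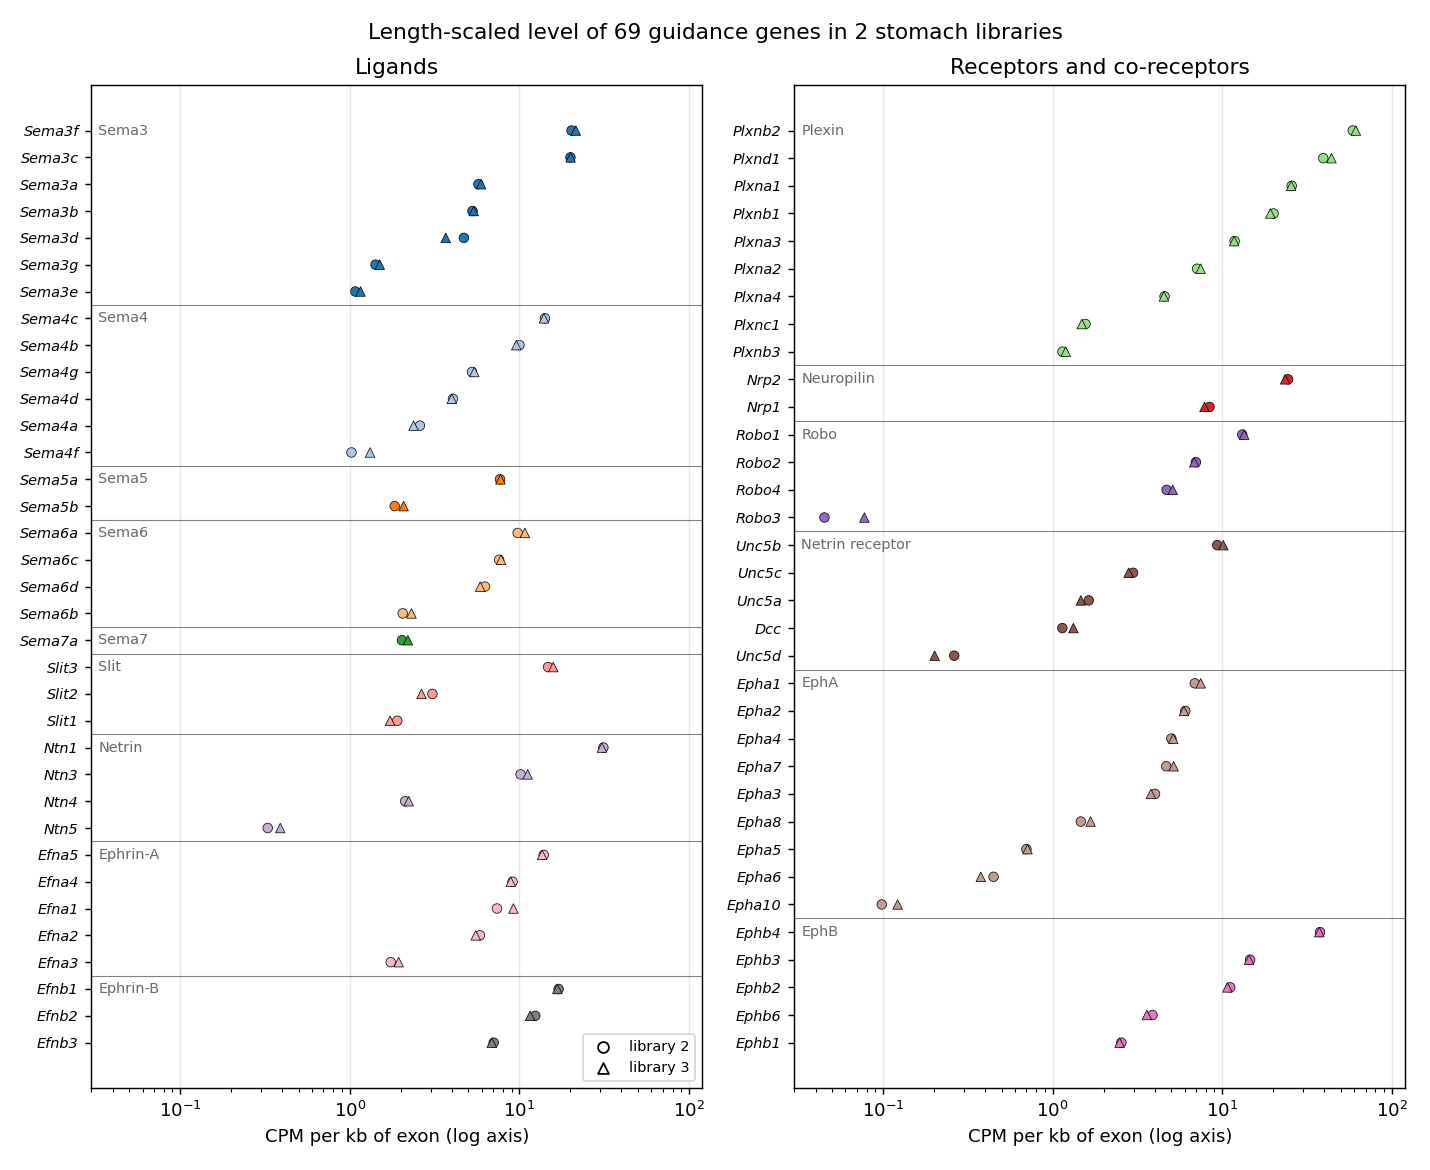
CPM per kb of exon (x axis, log scale) of the 69 guidance genes, ligands on the left and receptors on the right, ordered within each family; circles are library 2 and triangles library 3. Plxnb2 stands highest at 60.1 CPM per kb and Robo3 lowest at 0.0614, and for most genes the libraries nearly coincide.

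By length-scaled level the order was led by receptors. Plxnb2, a receptor of class 4 semaphorins (chromosome 15, 89155549 to 89180788, minus strand), stood at 60.1 ± 1.74 CPM per kb, followed by Plxnd1 at 41.7 ± 3.29 CPM per kb and Ephb4 at 37.5 ± 0.252 CPM per kb. Ntn1, the first ligand in the order, came next at 31.0 ± 0.432 CPM per kb. For each of these 4, the values of both libraries lay above those of the next gene. Further down the order ranges often overlapped: of 68 pairs of neighbours, 36 overlapped between libraries and 32 did not. The order also depended on the length used. With the median protein-coding transcript as length, Plxnb1 came first and Sema3f next; the exons of Plxnb1 add up to 9592 bases and its median coding transcript is 765 bases long. With the longest transcript Plxnb2 and Plxnd1 kept places 1 and 2.

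The start regions of members at both ends of this order are shown so that members with levels far apart can be compared. The windows run from 250 bases before to 50 bases after the start (RefSeq, GRCm38.p6), 5′ to 3′ on the strand of the gene, with each CG dinucleotide in capitals. Those of Plxnd1 and Ephb4 belong to the highest members by CPM per kb, and those of Robo3 and Epha10 to the lowest, among the 47 with exactly 1 window, leaving out genes whose sequence is not printed here.
Plxnd1, chr6:115994956-115995255, minus strand: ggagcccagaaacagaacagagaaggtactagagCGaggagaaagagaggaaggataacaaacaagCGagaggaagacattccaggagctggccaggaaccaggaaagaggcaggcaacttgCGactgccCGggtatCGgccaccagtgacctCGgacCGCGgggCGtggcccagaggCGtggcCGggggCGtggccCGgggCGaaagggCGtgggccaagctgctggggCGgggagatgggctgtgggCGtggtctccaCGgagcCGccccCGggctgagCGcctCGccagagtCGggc
Ephb4, chr5:137349859-137350158, plus strand: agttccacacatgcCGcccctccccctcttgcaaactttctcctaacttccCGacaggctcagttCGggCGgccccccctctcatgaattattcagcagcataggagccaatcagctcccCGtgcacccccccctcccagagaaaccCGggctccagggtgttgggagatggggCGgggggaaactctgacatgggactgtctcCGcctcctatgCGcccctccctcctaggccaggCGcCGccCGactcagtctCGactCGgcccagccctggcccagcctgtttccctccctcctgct
Robo3, chr9:37433126-37433425, minus strand: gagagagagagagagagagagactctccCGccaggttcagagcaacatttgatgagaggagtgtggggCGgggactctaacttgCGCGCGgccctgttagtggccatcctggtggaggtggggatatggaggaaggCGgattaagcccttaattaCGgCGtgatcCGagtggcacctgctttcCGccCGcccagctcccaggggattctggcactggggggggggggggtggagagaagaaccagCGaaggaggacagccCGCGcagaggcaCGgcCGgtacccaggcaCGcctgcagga
Epha10, chr4:124881535-124881834, plus strand: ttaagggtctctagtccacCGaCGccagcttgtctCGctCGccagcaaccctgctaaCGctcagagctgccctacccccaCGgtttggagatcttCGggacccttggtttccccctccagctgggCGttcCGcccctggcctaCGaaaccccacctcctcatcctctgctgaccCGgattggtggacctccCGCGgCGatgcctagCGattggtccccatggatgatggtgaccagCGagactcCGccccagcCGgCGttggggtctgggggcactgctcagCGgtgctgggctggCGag

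The windows of the highly expressed Plxnd1 and Ephb4 hold 23 and 14 CG dinucleotides, and those of Robo3 and Epha10, both under 1 CPM, hold 17 and 21. Ntn5, the other member under 1 CPM, has a window with 3. Windows were found for 59 of the 69 genes, 75 windows in all, with a median of 19 CG dinucleotides against 7 over all 32851 windows in the table. At least 15 CG dinucleotides stood in 62.7% of the member windows and 34.6% of all windows. The motif GGGCGG, searched on both strands and overlapping CG by its own letters, was in all 4 windows shown, in 70.7% of member windows and in 35.7% of all windows. TATAAA was in 2.67% of member windows and 13.6% of all windows, and CCAAT in 28% and 37.4%, both searched on both strands. The 32851 windows belong to 27025 genes. All 69 members are protein-coding, and no value over windows of protein-coding genes alone was taken. These gaps are therefore not shown to be particular to guidance genes. A match describes the letters of the window and is not evidence of binding. Across the 47 genes with 1 window, CG count and log2 CPM per kb correlated at Pearson's r of 0.202 and a Spearman rank coefficient of 0.257, a description over genes that share the same libraries.

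**Figure D3:**
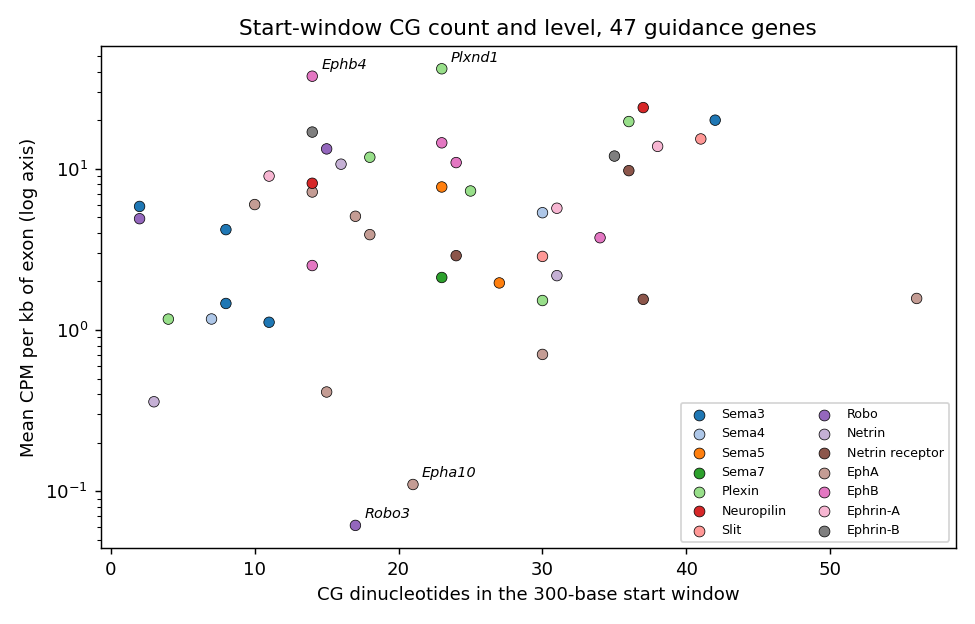
Number of CG dinucleotides in the start window (x axis) against mean CPM per kb (y axis, log scale) for the 47 guidance genes with exactly 1 window, coloured by family. Genes with 14 to 23 CG dinucleotides include Plxnd1 and Ephb4 at the top and Robo3 and Epha10 at the bottom.

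Class 3 semaphorins, the secreted members of the family, were led by Sema3c and Sema3f. Sema3c, known for its part in neural crest and heart outflow development, had 2770 and 3228 reads in Fgf9_null replicates 2 and 3 and 2771 and 3232 reads in Fgf9_het replicates 2 and 3, or 143 ± 0.232 CPM. Sema3f, a repellent that acts through Nrp2, had 2047 and 2523 reads in Fgf9_null replicates 2 and 3 and 2047 and 2527 reads in Fgf9_het replicates 2 and 3, or 109 ± 4.51 CPM. Per length Sema3c and Sema3f stood at 20.02 ± 0.0326 CPM per kb and 20.9 ± 0.868 CPM per kb, with ranges that did not overlap. Sema3f was 1.045 times as high by exon length and 2.63 times with the median coding transcript. Sema3a, the founding repellent of the class and a ligand of Nrp1, was at 81.0 ± 2.10 CPM but only 5.84 ± 0.152 CPM per kb, since its exons add up to 13868 bases. Its longest transcript has 5930 bases and its median coding transcript 2285. With these lengths it moved from place 34 of the 69 to places 20 and 9. Sema3d and Sema3b were at 4.19 ± 0.726 CPM per kb and 5.34 ± 0.0620 CPM per kb. Sema3e, which binds Plxnd1 without a neuropilin, and Sema3g were the lowest of the class, at 10.4 ± 0.526 CPM and 6.63 ± 0.270 CPM. The class summed to 58.9 ± 0.505 CPM per kb over 7 genes, and its highest member stood 18.7 times above its lowest (82.1 times with the median coding transcript).

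The membrane-bound classes each summed to a lower level per length than class 3, but Sema5a had the highest CPM of the 20 semaphorins. In class 4, Sema4c, a ligand of Plxnb2, had 65.0 and 64.2 CPM (libraries 2 and 3), Sema4b had 56.5 and 54.1 CPM (libraries 2 and 3), and Sema4g had 45.5 and 47 CPM (libraries 2 and 3). Sema4d, a ligand of Plxnb1, was at 30.9 ± 0.346 CPM, Sema4a at 13.4 ± 0.827 CPM and Sema4f at 6.19 ± 1.10 CPM. Sema4c was also the first of its class per length, at 14.1 ± 0.126 CPM per kb. In class 5, whose members carry thrombospondin repeats, Sema5a reached 144 ± 0.596 CPM and Sema5b 13.9 ± 1.19 CPM; per length the gap was 3.94-fold. In class 6, which signals to and from class A plexins, Sema6a had 85.8 and 94.6 CPM (libraries 2 and 3), Sema6d 66.2 and 62.0 CPM (libraries 2 and 3) and Sema6c 45.1 and 46.3 CPM (libraries 2 and 3), and Sema6b was lower at 8.66 ± 0.727 CPM. Sema7a, the GPI-anchored member, was at 6.98 ± 0.401 CPM. Per length, classes 4, 5, 6 and 7 summed to 36.9 ± 0.300 CPM per kb, 9.67 ± 0.200 CPM per kb, 26.2 ± 0.759 CPM per kb and 2.12 ± 0.121 CPM per kb.

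Plexins, the main semaphorin receptors, formed the most abundant family. The 9 genes summed to 1491 ± 33.6 CPM and 173 ± 4.44 CPM per kb. Of them, 8 reached 10 CPM in both libraries, beside 47% of all protein-coding genes. Plxnb2 had 8810 and 10678 reads in Fgf9_null replicates 2 and 3 and 8815 and 10681 reads in Fgf9_het replicates 2 and 3, or 464 ± 13.4 CPM, and only 147 genes of the table had a higher mean CPM. Plxnd1, a receptor best known from blood vessels (chromosome 6, 115954811 to 115995005, minus strand), had 5579 and 7256 reads in Fgf9_null replicates 2 and 3 and 5581 and 7260 reads in Fgf9_het replicates 2 and 3, or 305 ± 24.0 CPM. Plxna1, a partner of neuropilins, had 4509 and 5207 reads in Fgf9_null replicates 2 and 3 and 4510 and 5212 reads in Fgf9_het replicates 2 and 3, or 232 ± 1.12 CPM. Both library values of these 3 genes and of Plxnb1, which was at 188 ± 5.87 CPM, lay above those of every remaining plexin. The remaining class A genes followed, with Plxna2 at 125 ± 4.19 CPM, Plxna3 at 92.9 ± 0.460 CPM and Plxna4 at 64.2 ± 0.409 CPM. Plxnc1, the receptor of Sema7a, and Plxnb3 were the lowest, at 12.7 ± 0.448 CPM and 7.59 ± 0.235 CPM.

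Nrp2 was the more abundant of the neuropilins, which have short intracellular parts and pass signals on through plexins. Nrp2 (chromosome 1, 62703285 to 62818695, plus strand) had 5613 and 6274 reads in Fgf9_null replicates 2 and 3 and 5618 and 6282 reads in Fgf9_het replicates 2 and 3, or 284 ± 7.94 CPM. Nrp1, which also binds VEGF on vessels, had 1595 and 1734 reads in Fgf9_null replicates 2 and 3 and 1597 and 1735 reads in Fgf9_het replicates 2 and 3, or 79.6 ± 3.82 CPM. The groups of values did not overlap, and per length Nrp2 was 2.95 times as high (1.93 and 1.99 times with the longest and the median coding transcript), at 24.0 ± 0.670 CPM per kb against 8.13 ± 0.390 CPM per kb. Both were slightly higher in library 2, as were 9061 of all 16712 genes at 1 CPM in both libraries.

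Slit3 and Robo1 led the Slit and Robo genes. Slit3 had 89.7 and 96.1 CPM (libraries 2 and 3), Slit2 had 78.1 and 67.4 CPM (libraries 2 and 3), and Slit1, best known from the nervous system, had 11.3 and 10.2 CPM (libraries 2 and 3). Slits are large secreted proteins with leucine-rich repeats. Per length Slit3 stood at 15.3 ± 0.755 CPM per kb and Slit2 at 2.86 ± 0.299 CPM per kb, because the exons of Slit2 add up to 25433 bases, the most of any member. With the longest transcript Slit2 moved from place 47 of the 69 to 35 and Slit3 from 11 to 14. With the median coding transcript they stood at 37 and 21. Of their receptors, Robo1 had 4200 and 5013 reads in Fgf9_null replicates 2 and 3 and 4201 and 5016 reads in Fgf9_het replicates 2 and 3, or 219 ± 4.03 CPM, and Robo2 was at 117 ± 1.88 CPM. Robo4, a receptor of endothelial cells, was at 26.0 ± 1.52 CPM. Robo3, which is known for midline crossing in the hindbrain and spinal cord, had 6 and 12 reads under either label, with exact 95% Poisson intervals of 2.2 to 13.1 and 6.20 to 21.0 reads (counting error only). Robo3 and Robo4 lie 553 bases apart on chromosome 9, with their 3′ ends facing each other. Per length Robo4 was 79.9 times as high (62.4 to 80.9 over the 3 lengths), a fold that the few reads of Robo3 leave imprecise. In libraries 2 and 3, Robo3 stood at 0.0452 and 0.0776 CPM per kb and Robo4 at 4.70 and 5.11 CPM per kb.

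Netrin genes exceeded the Dcc and Unc5 receptor genes. Ntn1, the secreted netrin that attracts axons through Dcc and repels them through Unc5 (chromosome 11, 68209364 to 68400823, minus strand), had 3808 and 4343 reads in Fgf9_null replicates 2 and 3 and 3809 and 4344 reads in Fgf9_het replicates 2 and 3, or 194 ± 2.71 CPM. Ntn3 was at 54.6 ± 3.68 CPM, Ntn4, a component of basement membranes, at 8.13 ± 0.278 CPM and Ntn5 at 0.795 ± 0.0959 CPM. Ntn1 made up 70.1% of the summed CPM per kb of the 4 genes. Among the receptors, Unc5b, which is also known from vessels, had 58.4 and 63.4 CPM (libraries 2 and 3) and Unc5c 57.0 and 53.7 CPM (libraries 2 and 3). Dcc, the attractive receptor, was at 16.2 ± 1.72 CPM, with 291 and 394 reads in Fgf9_null replicates 2 and 3 and 292 and 394 reads in Fgf9_het replicates 2 and 3. Unc5a and Unc5d were at 6.46 ± 0.487 CPM and 2.14 ± 0.399 CPM. The summed Dcc and Unc5 genes had 0.350 and 0.358 times the summed CPM per kb of the netrins in libraries 2 and 3. The direction held with the other lengths, at 0.419 with the longest and 0.668 with the median coding transcript. Neo1, at 216 ± 4.86 CPM and 24.8 CPM per kb, also binds netrin but falls outside the name rule and is not in this sum.

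Among the Eph receptor kinases, class B exceeded class A. Ephb4, the receptor that marks veins in the embryo (chromosome 5, 137350109 to 137378669, plus strand), had 3393 and 3909 reads in Fgf9_null replicates 2 and 3 and 3394 and 3911 reads in Fgf9_het replicates 2 and 3, or 174 ± 1.17 CPM. Ephb2 had 2724 and 3049 reads in Fgf9_null replicates 2 and 3 and 2724 and 3049 reads in Fgf9_het replicates 2 and 3, or 138 ± 3.75 CPM, and Ephb3 had 1880 and 2155 reads in Fgf9_null replicates 2 and 3 and 1880 and 2156 reads in Fgf9_het replicates 2 and 3, or 96.2 ± 0.979 CPM. Ephb2 and Ephb3 are known for sorting cells along the intestinal crypt. Ephb1 and Ephb6, which lacks kinase activity, were at 17.6 ± 0.307 CPM and 14.1 ± 0.763 CPM. All 5 class B values were slightly higher in library 2, as were 9061 of all 16712 genes at 1 CPM in both libraries. The 5 ratios of library 2 over library 3 ran from 1.01 to 1.08, and each interval for counting error included 1.

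No class A receptor came near Ephb4. Epha7 had 46.2 and 51.1 CPM (libraries 2 and 3), Epha4 had 40.4 and 41.4 CPM (libraries 2 and 3) and Epha3 had 34.9 and 33 CPM (libraries 2 and 3). By exon length the class was led by Epha1 at 7.18 ± 0.408 CPM per kb. Epha2 followed at 6.0 ± 0.0754 CPM per kb and Epha4 at 5.07 ± 0.0894 CPM per kb. Epha1 and Epha2 are both known from epithelia, and exons of Epha1 overlap those of the more abundant Zyx. This order depended on the length used. With the longest transcript Epha1 stayed first (place 33 of the 69), but Epha7 (36) passed Epha2 (37). With the median coding transcript Epha4 (19), Epha3 (30) and Epha7 (36) stood above Epha1 (38) and Epha2 (42). Epha2 and Epha1 stood at 28 ± 0.352 CPM and 28.2 ± 1.60 CPM. Epha5 and Epha8 had 11.8 ± 0.125 CPM and 7.40 ± 0.693 CPM, and Epha6 and Epha10 had 2.18 ± 0.267 CPM and 0.793 ± 0.120 CPM. Class B summed to 69.2 ± 0.942 CPM per kb over 5 genes and class A to 29.9 ± 0.735 CPM per kb over 9, a ratio of 2.38 and 2.25 in libraries 2 and 3. With other lengths it was 1.99 to 2.05.

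Ephrin-B genes summed to 163 ± 5.23 CPM and ephrin-A genes to 102 ± 1.14 CPM, while per length the sums were closer. Ephrin-B genes encode transmembrane ligands that can also signal into their own cell. Efnb2, which marks arteries in the embryo, had 1651 and 1790 reads in Fgf9_null replicates 2 and 3 and 1651 and 1790 reads in Fgf9_het replicates 2 and 3, or 82.2 ± 4.09 CPM. Efnb1, an X-linked gene, had 1141 and 1304 reads in Fgf9_null replicates 2 and 3 and 1142 and 1305 reads in Fgf9_het replicates 2 and 3, or 58.3 ± 0.729 CPM, and Efnb3 was at 22.2 ± 0.412 CPM. Per length the order of the leading pair turned, with Efnb1 at 16.9 ± 0.211 CPM per kb and Efnb2 at 12.0 ± 0.596 CPM per kb; with the median coding transcript as length Efnb2 came first again. Ephrin-A genes encode GPI-anchored ligands. Efna5 led them with 56.1 and 54.9 CPM (libraries 2 and 3), followed by Efna1 with 13.5 and 16.9 CPM (libraries 2 and 3) and Efna4 with 14.6 and 14.2 CPM (libraries 2 and 3). Efna2 was at 12.1 ± 0.485 CPM and Efna3 at 4.49 ± 0.342 CPM. The class sums were 38.6 ± 0.851 CPM per kb for 5 ephrin-A genes and 35.9 ± 0.937 CPM per kb for 3 ephrin-B genes, and their ratio, class B over class A, was 0.961 and 0.897 in libraries 2 and 3 by exon length and 1.06 and 1.07 with the longest and the median coding transcript.

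**Figure D4:**
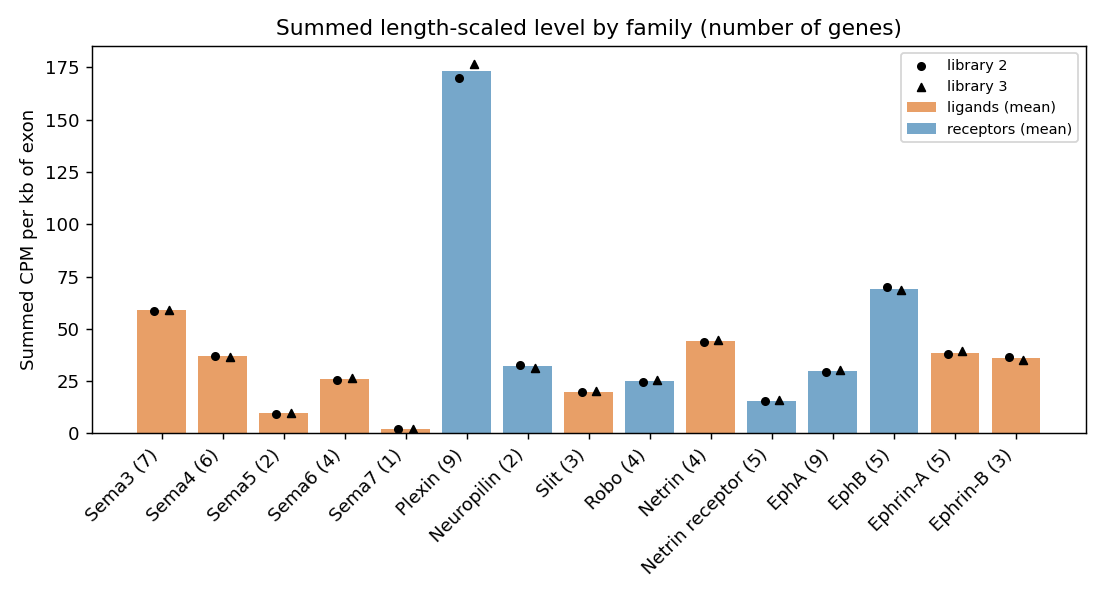
Summed CPM per kb of exon (y axis, from 0) for each family, with the number of genes in brackets; bars are the mean of 2 libraries, orange for ligands and blue for receptors, and points are the single libraries. The plexins stand highest at 173 CPM per kb, followed by the EphB receptors at 69.2 and the class 3 semaphorins at 58.9.

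Known ligand and receptor partners were set side by side per length; these pairs were picked from textbook knowledge with the levels known. Plxnd1 exceeded Sema3e 37.4-fold (29.2 to 53.0 over the 3 lengths) and Plxnb2 exceeded Sema4c 4.27-fold (4.13 to 4.30). Plxnb1 exceeded Sema4d 4.88-fold, a value that ran from 3.16 to 35.4 over the lengths. Ephb4 exceeded Efnb2 3.13-fold (1.43 to 3.13) and Robo1 exceeded Slit2 4.64-fold (3.54 to 4.64). Plxna1 exceeded Sema6d 4.21-fold (2.58 to 4.21). In these pairs the receptor was the more abundant transcript under every length. Ntn1 was on the other side, 25.1 times as high as Dcc (15.8 to 25.1) and 3.18 times as high as Unc5b (2.65 to 3.19). Sema7a was 1.39 times as high as Plxnc1 (1.22 to 1.39). Sema6a over Plxna4, Efna5 over Epha7 and Efna1 over Epha2 stood at 2.26 (2.26 to 4.39), 2.80 (1.91 to 2.80) and 1.38 (1.299 to 1.43), all above 1 under every length. Robo1 against Slit3 was 0.868 by exon length but 0.868 to 1.87 over the lengths, so its direction was not settled, and neither was that of Nrp1 against Sema3a, Nrp2 against Sema3f or Ephb2 against Efnb1. Over whole families the ratio of plexins to semaphorins was 1.28 and 1.31 in libraries 2 and 3, but 1.01 with the longest transcripts. Robo over Slit was 1.26 and 1.26 by exon length and reached 2.42 with the median coding transcript. RNA levels of a whole organ do not say whether partners are made by the same or by neighbouring cells.

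Several members lie close together in the genome, and neighbours differed by 1.39- to 79.9-fold by exon length (1.08- to 80.9-fold with the median coding transcript). The upper ends are Robo4 over Robo3, and Robo3 had only 6 and 12 reads in libraries 2 and 3. Within 1 Mb of each other there are 11 pairs, with 19 members in them. On chromosome 3, Efna1, Efna3 and Efna4 follow each other with gaps of 32.8 and 10.4 kb on the same strand, and Efna3 between them was 4.5 and 4.89 times lower per length than Efna1 and Efna4 (3.55 to 4.90 and 3.12 to 4.89 over the 3 lengths). On chromosome 5, Sema3d, Sema3a and Sema3e lie in a row, and Sema3a exceeded Sema3e 5.23-fold (5.23 to 23.4 over the 3 lengths). On chromosome 9, Sema3f lies 72.3 kb from Sema3b and was 3.92 times as high (3.92 to 9.17). Ephb2 lies 93.4 kb from Epha8 on chromosome 4 and was 6.96 times as high (6.96 to 20.8), and Plxna3 on the X chromosome was 10.1 times as high as Plxnb3 at a distance of 557 kb.

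Genes that work with these receptors were expressed as well. All 10 genes listed as netrin co-receptors, netrin-like or repulsive guidance molecules reached 1 CPM in both libraries. Rgmb and Neo1 led them at 220.4 ± 8.70 and 216 ± 4.86 CPM. Of all protein-coding genes in the table, 65.8% reached 1 CPM in both. Neo1 encodes neogenin, a relative of Dcc that also binds netrin and the repulsive guidance molecules. Per length Neo1 stood at 24.8 CPM per kb and Dcc at 1.23. Of 20 semaphorin and plexin co-receptor and transducer genes, 19 reached 1 CPM, led by Dpysl3, a collapsin response mediator, at 334 ± 0.960 CPM and Arhgef12, whose product binds class B plexins, at 293 ± 13.4 CPM. All 14 Slit and Robo transducers did, led by the kinase gene Abl1 and the dystroglycan gene Dag1 at 254 ± 1.13 and 253 ± 7.81 CPM. All 14 Eph and ephrin transducers did too, led by the phosphatase gene Ptpn13 at 163 ± 9.87 CPM and Kalrn at 136 ± 4.22 CPM.

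The libraries differed little in their guidance genes. Of the 66 members at 1 CPM or more in both, 34 were higher in library 2 and 32 in library 3. Over all 16712 genes at that level the numbers were 9061 and 7651. The median ratio of library 2 over library 3 was 1.007 for the members and 1.011 for all these genes. In 4 members, or 6.06%, the higher library exceeded the lower by over 25%, beside 14.6% of all such genes, and 0 members differed by over 1.5-fold, beside 3.88%. The members are better counted than most genes: at a mean of 10 CPM or more, 2 of 55 members and 5.32% of all genes passed 25%. The libraries are 1 sample each, so none of these differences has a replicate check.

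Sema3d and Unc5d were the 2 members over 25% higher in library 2, beside 9.46% of all genes. Sema3d, a class 3 semaphorin (chromosome 5, 12383385 to 12588948, plus strand), had 785 and 714 reads in Fgf9_null replicates 2 and 3 and 785 and 714 reads in Fgf9_het replicates 2 and 3. Its CPM was 40.5 in library 2 and 31.6 in library 3 (ratio of library 2 to library 3 1.28, counting interval 1.15 to 1.42). Unc5d (2.42 and 1.86 CPM) had 47 and 42 reads in libraries 2 and 3, and its interval included 1 (1.30, counting interval 0.840 to 2.02); it was named after its value was seen. Sema4f and Efna1 were the 2 over 25% higher in library 3, beside 5.18% of all genes. Sema4f had 105 and 157 reads (ratio of library 3 to library 2 1.29, counting interval 0.998 to 1.66) and Efna1 had 262 and 381 reads (1.2502, counting interval 1.07 to 1.47). Epha6 (2.37 and 1.99 CPM) had a ratio of 1.19 toward library 2 (counting interval 0.771 to 1.83) and was also named after its value was seen. Among members at 2 CPM or more in both libraries, next toward library 2 came Slit2 (1.16, counting interval 1.08 to 1.2465), Unc5a (1.11, counting interval 0.870 to 1.42), Slit1 at 1.10 and Sema4a at 1.09. Next toward library 3 came Dcc (1.16, counting interval 0.995 to 1.35), Epha8 at 1.14 and Sema5b at 1.13. Among these further genes only the interval of Slit2 left out 1. These exact 95% intervals cover counting error only.

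A counting interval that excluded 1 was found for 13 of the 66 members, or 19.7%, beside 23% of all 16712 genes. Sema3d, Nrp2, Slit2 and Efnb2 were the 4 higher in library 2, beside 12.7% of all genes. Sema3f, Sema6a, Plxnb2, Plxnd1, Slit3, Ntn3, Unc5b, Epha7 and Efna1 were the 9 higher in library 3, beside 10.3%. Well-counted genes enter this group at small differences, such as Plxnb2 with a ratio of library 3 to library 2 of 1.04. Slit2 and Slit3 thus lay on opposite sides, at 1.16 and 0.933 for library 2 over library 3.

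Some lists of cell type markers also differed between the libraries, and others were mixed. All 7 forestomach squamous markers were higher in library 2, with a sum of 656 CPM there against 352 CPM in library 3. All 5 blood endothelium markers were higher in library 3, with a sum of 299 CPM against 258 CPM in library 2, and 4 of 4 liver markers at 1 CPM or more were too, with 57.2 against 34.7 CPM. Erythroid markers at that level were higher in library 3 (3 of 3, sums of 997 against 798 CPM), and skeletal muscle markers at that level were higher in library 2 (3 of 3, sums of 15.51 against 10.6 CPM). Neither endothelial nor squamous markers were at 0 in a library. Of members known from vessels, Plxnd1, Unc5b and Robo4 were higher in library 3 by 1.12-, 1.09- and 1.09-fold, while Ephb4, Nrp1 and Efnb2 had library 2 over library 3 ratios of 1.01, 1.07 and 1.07; these were named after their values were seen. The 7 enteric neuron markers summed to 324 and 322 CPM in libraries 2 and 3. The part of cell composition in the members' differences was not tested, and in bulk tissue fewer cells of a type and less RNA per cell cannot be told apart.

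**Figure D5:**
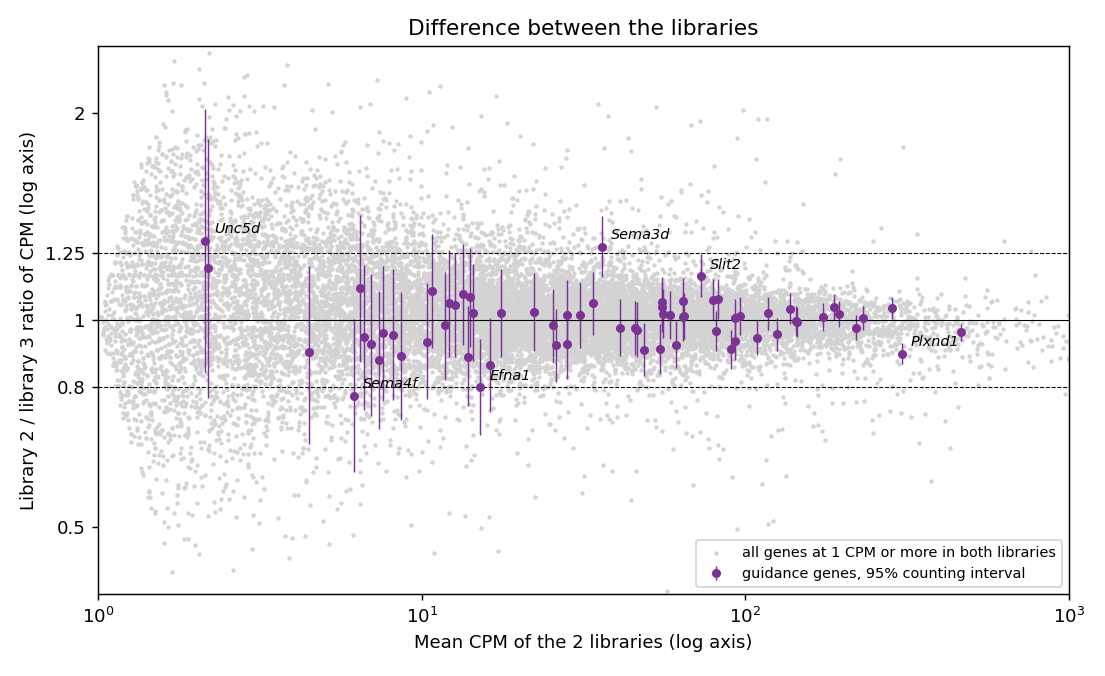
Ratio of CPM in library 2 to library 3 (y axis, log scale) against mean CPM (x axis, log scale); purple points with 95% counting intervals are the 66 guidance genes that reached 1 CPM in each library, grey points all such genes, some of which lie beyond the axes. Dashed lines mark a difference of 25% either way; Sema3d at 1.28 and Unc5d at 1.30 lie above, and Sema4f and Efna1 below.

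Some levels depend on how reads were assigned. Estimated reads were whole numbers (within 0.01) in all 4 columns for 36 members and not for 33. Exons of 18 members overlap another annotated gene, and as the strand setting is not given, reads of overlapping genes on opposite strands may not have been separated. The overlap took 23.4% of the exon bases of Ntn5 (with Sec1), 14.1% of Efna3 (with Gm15998), 10.7% of Plxna1 (with Gm26811) and 10.5% of Efna4 (with 4731419I09Rik). Among overlapping genes with a level in the table, the overlapping gene was the higher one for Ntn5 and Epha1. Sec1 was at 3.2 CPM against 0.795 CPM for Ntn5, and Zyx, which shares 6.01% of the exon bases of Epha1 on the opposite strand, was at 165 CPM against 28.2 CPM for Epha1, so the levels of Ntn5 and Epha1 are uncertain.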

How the data were processed

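Per the labels' protocols, ribosomal RNA was removed with RNase H and cDNA was primed at random and read from both ends (NovaSeq). Salmon 1.8.0, Trimmomatic 0.33, FastQC 0.10, edgeR and the builds mm10 and GRCm38 stand in the submitters' processing notes, without roles; no source used here gives the annotation release or the strand setting. The authors deposited estimated counts per gene, not scaled to depth. The 4 named columns were matched by sample title; 2 unnamed columns were not used. Replicate numbers pair columns of 1 library (chi-square check above; deviations from group means correlated at 0.999), and same-numbered columns were averaged.

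For the genotype test, counts were rounded and fitted in edgeR 4.0.16 (R 4.3.3, TMM, filterByExpr, quasi-likelihood F test). Benjamini-Hochberg adjustment ran over all 19987 genes. DESeq2 1.42.0 and limma 3.58.1 (voom) were alternatives. All were tried on simulated counts of separately drawn columns, which says nothing about duplicated columns such as these. A p-value of the genotype test reflects column-to-column spread only, which may be technical. Without the replicate block, that spread is the one between libraries 2 and 3, whereas the contrast sets a library against itself. Since each library stands under both labels, the 4 columns are not independent. Neither a p-value nor an SE therefore measures the spread of the contrast. Exon lengths came from GENCODE M21, in which 50870 of 51098 table genes were found. Genes named in full were up to 3 members of each family with the highest mean CPM, any member under 3 counts in every column (there was none), up to 5 in each direction with the largest library ratio at 2 CPM or more, and calls; every member is given a level. Members and lists were chosen with earlier results of these data known.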

Additional observations from a re-analysis of the deposited data

How the results depend on the processing

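The count of 0 guidance genes called between the labels stayed at 0 with RLE factors, both other filters, DESeq2, limma-voom and the replicate block. The same 2 libraries stand under both labels, so a change of method could hardly move this count. Over all genes, the count of 0 became 3 with DESeq2 and 6 with the replicate block, and 1 to 2 without 1 column, where the lone column is assumed to vary like the other group. The 66 genes at 1 CPM became 68 at 0.5 CPM and 64 at 2 CPM. The summed level of 4700 CPM became 4668 from the Fgf9_null columns alone and 4733 from the Fgf9_het columns alone. Member reads were nearly equal under the 2 labels, but the column totals by which they are divided were not. Replicates 2 and 3 had totals of 19537211 and 22713416 under Fgf9_null and 19269851 and 22425865 under Fgf9_het. The sum became 5740 without 43 structured, ribosomal-locus and mitochondrial RNA genes, which scaled all 15 families by 1.22. Single libraries gave 4682 to 4719. The most abundant gene per length was the same in 15 of 15 families with the longest transcript and in 11 with the median coding transcript, where Plxnb1, Unc5c, Epha4 and Efnb2 took the lead. The 4 genes that differed by over 25% between libraries became 0 at 1.5-fold; the number of libraries, 1 of each, limits that comparison, and counting error limits the members under 1 CPM.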
